A study of Danio rerio with 6 samples.

Results

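The transcripts described here differed in abundance between replicates 2 and 1 in the same direction in both tp63 mutant and WT zebrafish embryos at 36 h post-fertilization (hpf). The series holds 3 tp63 mutant (tp63 -/-) and 3 WT RNA-seq samples, each made from total RNA of a pool of whole embryos. The mutants are homozygous for a small CRISPR/Cas9 deletion that removes p63 protein from the entire animal, and the pooled embryos were genotyped from DNA taken in parallel. No treatment or other allele is given for either genotype, and nothing in the labels or methods says what samples with the same replicate number share. Counts were expressed as CPM, the count of a transcript per 1000000 counts of its library, and 26680 of 58549 transcripts had a CPM of at least 1 in all 6 samples. For each of these, d was defined as log2(CPM of replicate 2 / CPM of replicate 1) within a genotype. The 100 transcripts with the largest smaller d of both genotypes form the group higher in replicate 2, and the 100 with the lowest larger d form the group lower in replicate 2. The transcripts were thus chosen by the measured CPM of replicates 2 and 1, and the replicate 3 samples took part only through the CPM limit.

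The transcription factor p63 is the master regulator of the stratified epidermis, where it maintains basal keratinocytes and drives their gene program. In zebrafish, as in mammals, its loss leaves embryos with defects of the skin and of limb or fin buds. In RNA of whole embryos, fewer cells of a type and less RNA per cell cannot be told apart. The counts are given per Ensembl transcript without gene names, and the tables at hand pair none of the identifiers with a gene, so all transcripts are named by identifier and their roles, tp63 itself and cell type markers were not analysed here.

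Total counts were similar between libraries, from 77133790 to 81976521. The library composition was not. The TMM factor of edgeR, a scaling factor that accounts for composition, was 1.20, 0.978 and 1.02 in tp63 mutant replicates 2, 1 and 3, against 1.08, 0.833 and 0.922 in WT replicates 2, 1 and 3. The reads that htseq-count placed on no transcript equalled 8.72%, 7.58% and 8.36% of the counted total in the same mutant samples and 8.53%, 8.06% and 7.43% in the WT samples. In both genotypes, replicate 2 thus had the highest TMM factor and the most reads outside transcripts. Libraries of the same genotype differed far beyond sampling noise. The smallest chi-square of a pair, that of tp63 mutant replicates 1 and 3, was 42.3 times its degrees of freedom. The value for mutant replicates 2 and 3 was 134. In WT it was 70.1 for replicates 1 and 3 and 87.7 for replicates 2 and 3.

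The replicate difference was wider in the group higher in replicate 2. The median d over all 26680 transcripts was 0.16 in tp63 mutants and 0.26 in WT on the CPM scale, and -0.14 and -0.12 when CPM was divided by the TMM factor, so the direction of a small d depends on the scaling. The group higher in replicate 2 had a median d of 1.95 in tp63 mutants, from 1.76 to 2.69, and of 2.30 in WT, from 1.77 to 3.43. These medians lay 1.79 and 2.05 above those of all transcripts, and on the TMM scale they were 1.65 and 1.92. The group lower in replicate 2 had a median d of -0.80 in tp63 mutants, from -1.51 to -0.66, and of -0.98 in WT, from -3.41 to -0.66. Relative to the medians of all transcripts these were -0.95 and -1.23, and on the TMM scale they were -1.09 and -1.35. On the CPM scale, the median shift of the first group was thus 3.87-fold in tp63 mutants and 4.93-fold in WT, and that of the second was 1.74-fold and 1.97-fold. At the edge of the first group, ENSDART00000059339.5 (rank 100) had d of 1.76 in tp63 mutants and 1.94 in WT, and ENSDART00000136624.1 (the next in rank, not a member) had 1.76 and 1.87. At the edge of the second, ENSDART00000055068.4 (rank 100) had -0.66 in tp63 mutants and -1.32 in WT, and ENSDART00000019003.5 (the next in rank, not a member) had -0.66 in both. Neither edge is a break in the values. These values chose the transcripts and were not tested.

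**Figure D1:**
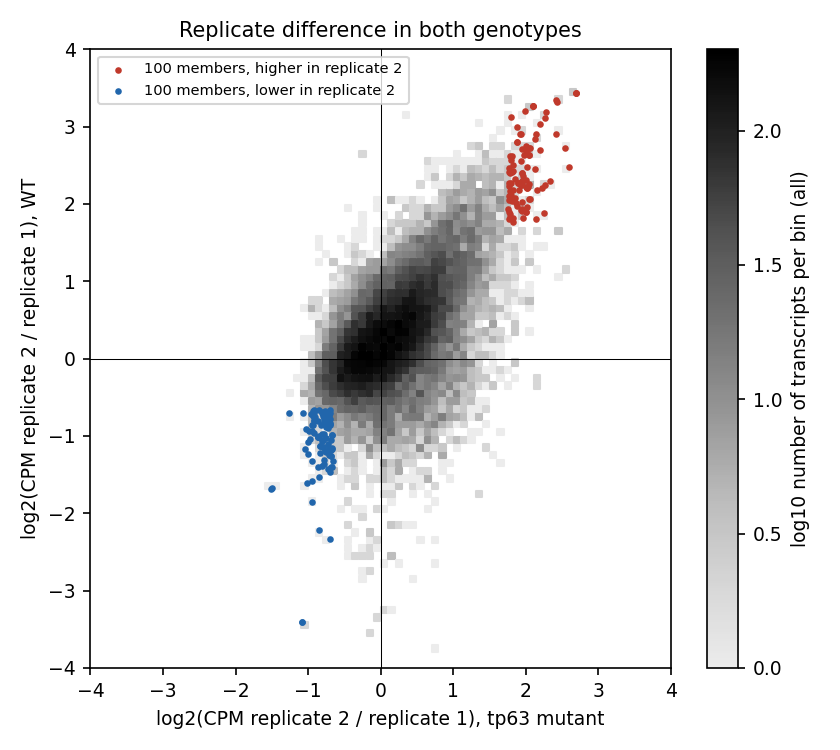
Log2 ratio of CPM in replicate 2 over replicate 1, tp63 mutant on the x axis and WT on the y axis. Grey squares give the number of the 26680 transcripts per bin, red points the 100 members higher in replicate 2 and blue points the 100 members lower in replicate 2. The red points reach 2.69 in tp63 mutants and 3.43 in WT, while the blue points reach -1.51 in tp63 mutants and -3.41 in WT.

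The group higher in replicate 2 held no transcripts of high abundance. It did not hold the rarest ones either, with a lower quartile of mean CPM of 4.79, against 4.19 over all 26680 transcripts. Its mean CPM over the 6 samples had a median of 6.82 and a range of 2.42 to 46.9, against a median of 9.38 over all 26680 transcripts, and none of its members reached 100 CPM, as 5.49% of all transcripts did. CPM is a share of the counts and is not corrected for transcript length. Summed over the 100 members, CPM was 1809, 452 and 728 in tp63 mutant replicates 2, 1 and 3, against 1138, 213 and 612 in WT replicates 2, 1 and 3. The highest sample was tp63 mutant replicate 2 for 98 members and the lowest was WT replicate 1 for 99, against 39.8% and 41.5% of all transcripts. The selection favours a replicate 2 sample as the highest and a replicate 1 sample as the lowest, so these counts only describe the members. For 69 members, the CPM of WT replicate 1 was below 2, close to the limit of 1 that the selection set. Their counts were nevertheless well above 0, and the lowest count of any member in any sample was 79, which gives a counting error of 0.16 on the log2 scale.

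The strongest replicate shift was that of ENSDART00000158456.1, with 15.4, 2.39 and 5.21 CPM in tp63 mutant replicates 2, 1 and 3, against 11.3, 1.052 and 5.76 CPM in WT replicates 2, 1 and 3. Replicate 2 was 6.47-fold above replicate 1 in tp63 mutants and 10.8-fold in WT. ENSDART00000159135.1 and ENSDART00000160069.1 had the same counts in almost every sample, so the 3 identifiers are not separate observations. ENSDART00000133036.1 had 25.6, 4.41 and 9.32 CPM in tp63 mutant replicates 2, 1 and 3, against 11.1, 1.69 and 7.83 CPM in WT. ENSDART00000145114.2 had 11.7, 1.94 and 4.16 CPM in tp63 mutant replicates 2, 1 and 3, against 6.06, 1.09 and 2.48 CPM in WT. In each of these, replicate 3 took an intermediate place in both genotypes, and the ranges of mutant and WT values overlapped.

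The same shape was found in the members with the most counts. ENSDART00000073930.6 had 107, 26.1 and 38.0 CPM in tp63 mutant replicates 2, 1 and 3, against 61.8, 13.0 and 35.7 CPM in WT. ENSDART00000172296.1 had 70.5, 18.1 and 29.2 CPM in tp63 mutant replicates 2, 1 and 3, against 39.7, 7.76 and 28.7 CPM in WT. In both, the third mutant and the third WT sample were close to each other, while the other mutant samples were above their WT counterparts. ENSDART00000113668.3 had 59.7, 12.8 and 19.6 CPM in the mutant samples and 35.0, 7.55 and 17.7 CPM in the WT samples. ENSDART00000006622.6 had 42.7, 12.5 and 20.1 CPM in the mutant samples and 26.2, 6.13 and 17.6 CPM in the WT samples. ENSDART00000080289.4 was the only one of these 5 in which replicate 3 was lower in the mutant, with 43.6, 9.54 and 16.2 CPM in tp63 mutants, against 28.1, 4.35 and 20.96 CPM in WT.

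**Figure D2:**
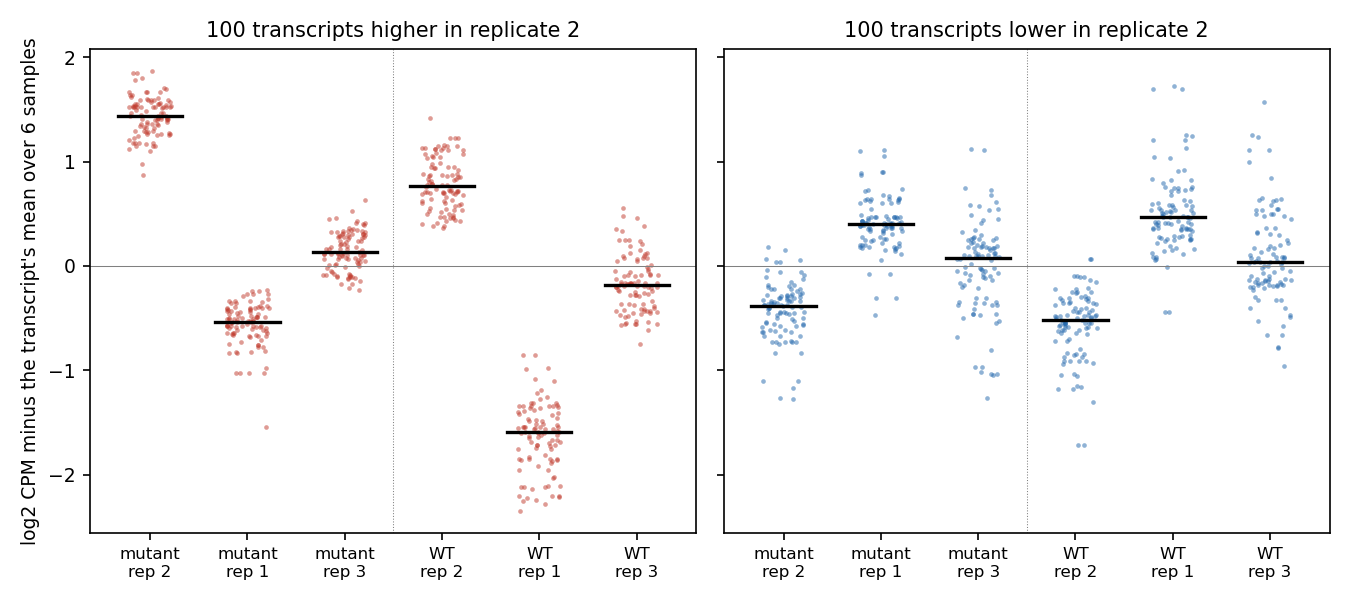
Log2 CPM of each member minus its own mean over the 6 samples, for the 100 transcripts higher in replicate 2 (left) and the 100 lower in replicate 2 (right). Points are transcripts, black bars are medians, and the samples run from tp63 mutant to WT. Mutant replicate 2 is the highest sample for 98 transcripts of the left panel and WT replicate 1 the lowest for 99, while replicate 3 of both genotypes lies between. The selection favours a replicate 2 sample as the highest and a replicate 1 sample as the lowest in that panel.

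Replicate 3, which did not rank the transcripts, lay between replicates 1 and 2 for all 100 members higher in replicate 2, in tp63 mutants and in WT alike. Over all 26680 transcripts this was the case for 54.3% in tp63 mutants and 56.2% in WT, and the wide gap that the selection requires makes an intermediate value more likely. On the TMM scale it was the case for 100 members in tp63 mutants and 98 in WT. The position of replicate 3 was measured as its log2 CPM minus the mean log2 CPM of replicates 1 and 2. The median position was -0.28 in tp63 mutants, with 6 of 100 members above 0, and 0.25 in WT, with 74 of 100 above 0. Over all transcripts the medians were -0.08 and -0.02, with 36.3% and 46.4% above 0. Replicate 3 of the mutant was therefore nearer to replicate 1 for 94 members, and replicate 3 of WT was nearer to replicate 2 for 74. Mutant replicate 3 was nearer to replicate 2 for the other 6, against 29.3% of all transcripts. In WT, 48.3% of all transcripts had replicate 3 nearer to replicate 2. Mutant replicate 3 was thus mostly nearer to replicate 1 over all transcripts too. The difference between genotypes rests on 1 replicate 3 sample each and was not tested.

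Taken over both genotypes, the position of replicate 3 was near 0. In edgeR's quasi-likelihood fit with replicate number as a factor and genotype as a covariate, replicate 3 differed from the mean of replicates 1 and 2 by a median log2 fold change of 0.01 for the members higher in replicate 2 and of 0.02 for all 41974 transcripts tested. No member passed an adjusted p of 0.05, as no transcript did (0% of 41974 in either direction). At an unadjusted p under 0.05, 2 members were higher and none lower, against a background of 0.851% and 0.703% of all transcripts. DESeq2 called 1 of 41974 transcripts lower and none higher, and no member. The 2 members with the most extreme position were ENSDART00000156019.2, at 0.31 in tp63 mutants and 0.99 in WT, and ENSDART00000142702.2, at 0.53 and 0.59. ENSDART00000156019.2 had 12.2, 2.80 and 7.22 CPM in tp63 mutant replicates 2, 1 and 3, against 8.94, 1.64 and 7.64 CPM in WT, so that replicate 3 was nearer to replicate 2 in both genotypes. The edgeR fit gave it a log2 fold change of 0.72 with a standard error of 0.20 and an adjusted p of 1.

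**Figure D3:**
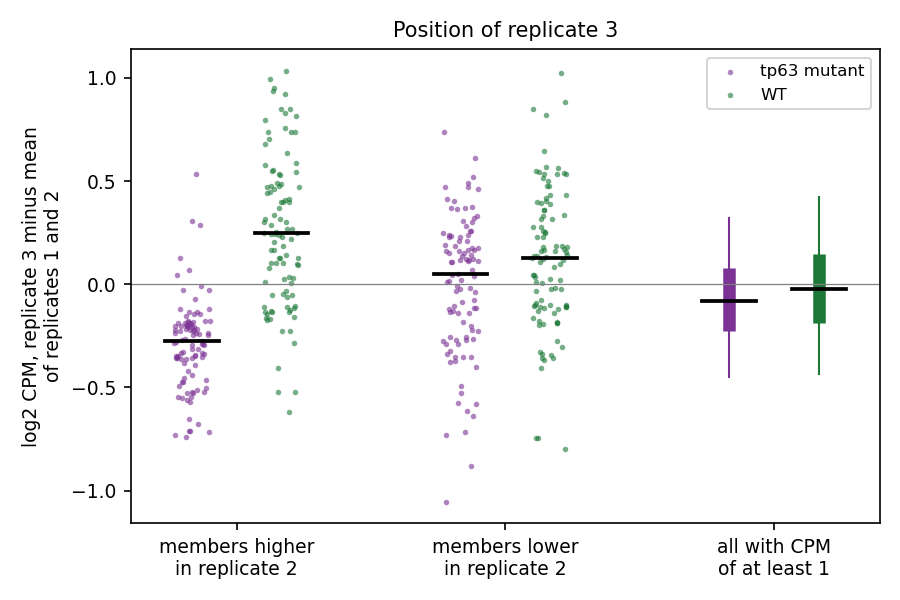
Position of replicate 3, given as its log2 CPM minus the mean log2 CPM of replicates 1 and 2, in tp63 mutants (purple) and WT (green). Points are members and black bars medians, and for all 26680 transcripts the thick bar spans the quartiles and the thin line the 5th to 95th percentile. For members higher in replicate 2 the median is -0.28 in tp63 mutants and 0.25 in WT.

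The 6 samples had nearly the same order in most of these transcripts. From high to low, 70 of 100 members ran tp63 mutant replicate 2, WT replicate 2, mutant replicate 3, WT replicate 3, mutant replicate 1 and WT replicate 1, an order found in 3.85% of all 26680 transcripts. The selection fixes replicate 2 above replicate 1 within a genotype, and its wide gap also favours both replicate 2 samples above both replicate 1 samples with replicate 3 between, so that the share is a description of the members and was not tested. A further 15 members had WT replicate 3 below mutant replicate 1, which is the order of the TMM factors, and 12 had WT replicate 3 above mutant replicate 3. With TMM-scaled CPM the first order was found in 52 members. Over all 26680 transcripts, the order of the TMM factors was the most frequent one on the CPM scale, at 4.72%. The part of library composition in the order of the members was not tested.

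Within each replicate number, members higher in replicate 2 mostly had more CPM in tp63 mutants than in WT. For replicate 3, which did not rank them, 86 of 100 members were above WT in the mutant, with a median log2 difference of 0.24, against 59.6% and 0.09 for all transcripts. For replicate 2 the numbers were 98 members and a median of 0.71, against 61.3% and 0.11, and for replicate 1 they were 99 members and 1.12, against 71.8% and 0.20. With TMM factors, 69, 93 and 94 members were above WT for replicates 3, 2 and 1, against 44.3%, 45.1% and 46.4% of all transcripts. The CPM of replicates 2 and 1 chose the members, so their numbers are shaped by the selection and replicate 3 is not ranked against them. Samples were matched by number only, and what same-numbered samples share is not stated.

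Over the 3 samples of each genotype, the test of mutant against WT has the replicate gap by which the members were chosen as its error, so that few calls follow from the selection and nothing is read from their number. In edgeR's quasi-likelihood fit of mutant against WT, 0 of 100 members were called higher and 0 lower, against 0.272% and 1.22% of the 41974 transcripts tested. At an unadjusted p under 0.05 it was also 0 members, against 4.5% higher and 5.93% lower among all transcripts, and DESeq2 called no member, with 2 higher at an unadjusted p under 0.05. The median log2 fold change of the members was 0.44 with 94 of 100 positive, against 0.01 with 50.6% positive over all transcripts tested, and the median standard error of the members was 0.51. Scaling by library totals in place of TMM moved the median of all transcripts to 0.18 and that of the members to 0.62. The median of the members was -0.14 without tp63 mutant replicate 2 and 0.07 without WT replicate 1. It was 0.77 without tp63 mutant replicate 1 and 0.99 without WT replicate 2. Each of these fits leaves the replicate gap that chose the members unbalanced between genotypes. These shifts are thus shaped by the selection, and nothing is read from them. With the replicate number as a term in the fit, 20 members were called higher and 0 lower, where 2.09% and 2.94% of all transcripts were called. The median log2 fold change was then 0.49, with 94 of 100 members positive. That term removes the gap by which the members were chosen, so nothing is read from this number of calls either. Mutant and WT values overlapped for all 100 members, which the wide gap within each genotype makes likely by selection (without overlap were 12.3% of the 26680 transcripts with the mutant higher and 4.64% with the mutant lower).

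The members of this group with the smallest p were looked up after their values were seen. ENSDART00000136990.2 averaged 5.66 ± 3.88 CPM in tp63 mutants and 2.67 ± 1.64 CPM in WT (SD, n = 3 each). The log2 fold change by edgeR was 0.91 with a standard error of 0.47 and an adjusted p of 0.563. ENSDART00000171537.1 averaged 7.08 ± 4.67 CPM in tp63 mutants and 3.30 ± 2.37 CPM in WT (SD, n = 3 each). The edgeR fit put its log2 fold change at 0.94 with a standard error of 0.48 and an adjusted p of 0.566. In both, the SD of the mutant samples exceeded the difference between the means. That SD includes the gap between replicates 2 and 1 by which the members were chosen.

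**Figure D4:**
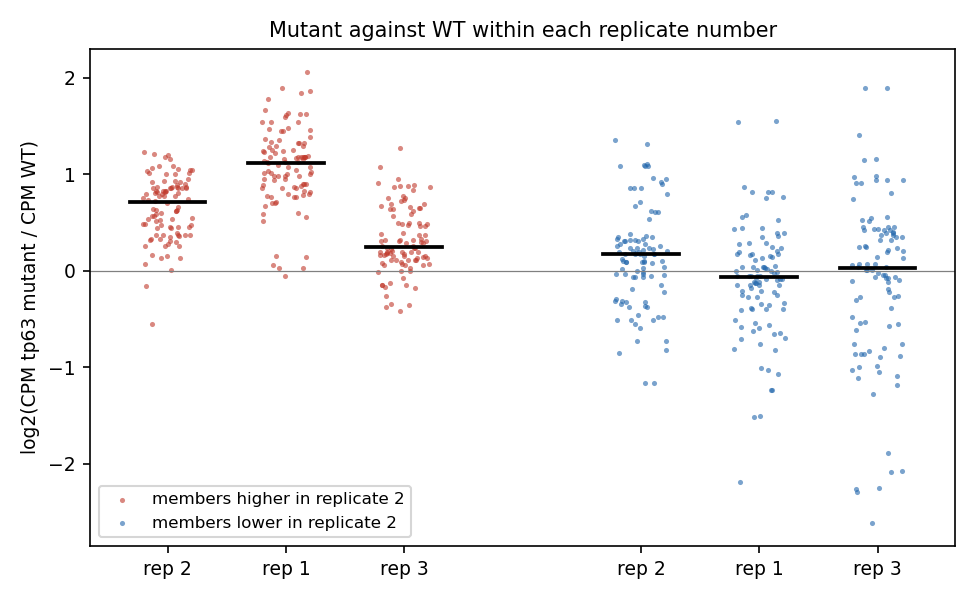
Log2 ratio of CPM in the tp63 mutant over CPM in WT within each replicate number, for members higher in replicate 2 (red) and lower in replicate 2 (blue). Points are transcripts and black bars medians. The red medians are 0.71, 1.12 and 0.24 for replicates 2, 1 and 3, and the blue ones are 0.17, -0.07 and 0.02.

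The group lower in replicate 2 was more mixed in abundance. Its mean CPM had a median of 6.51, but the range of 1.67 to 1898 was wide, and 20 of 100 members reached 100 CPM, against 5.49% of all transcripts. Summed over the 100 members, CPM was 9554, 17118 and 11081 in tp63 mutant replicates 2, 1 and 3, against 8810, 18418 and 17003 in WT replicates 2, 1 and 3. These sums are carried by the abundant members and equal 0.955% to 1.84% of a library's counts, while the group higher in replicate 2 holds 0.0213% to 0.181%. The 6 samples followed 31 different orders from high to low, against 6 orders in the group higher in replicate 2, and the most frequent one had 9 members. With TMM-scaled CPM there were 25 orders, against 11. The gap by which the members were chosen is narrower here. Median d was -0.80 in tp63 mutants and -0.98 in WT, against 1.95 and 2.30 in the other group. A narrower gap leaves room for more orders, so the numbers of orders only describe the members. WT replicate 2 was the lowest sample for 59 members and tp63 mutant replicate 2 for 33, where the selection favours a replicate 2 sample as the lowest.

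The most extreme members were rare transcripts. ENSDART00000106058.4 had 1.09, 3.09 and 1.27 CPM in tp63 mutant replicates 2, 1 and 3, against 1.93, 6.21 and 6.22 CPM in WT. ENSDART00000171988.1 had nearly the same counts. ENSDART00000168171.1, whose counts nearly equal those of ENSDART00000076766.5, had 2.42, 5.14 and 2.95 CPM in tp63 mutant replicates 2, 1 and 3, against 1.14, 12.2 and 5.45 CPM in WT. Its WT replicate 1 was 10.6-fold above WT replicate 2, the widest gap of the named members lower in replicate 2. That WT replicate 2 value of 1.14 CPM is close to the limit of 1 that the selection set. For 28 members of this group, the lowest sample was below 2 CPM. ENSDART00000159927.1 was the only abundant one among the 5 most extreme, with 115, 237 and 111 CPM in tp63 mutant replicates 2, 1 and 3, against 97.4, 219 and 197 CPM in WT. Replicate 3 matched replicate 2 in the mutant and was close to replicate 1 in WT.

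The 5 members with the most counts repeated that pattern. ENSDART00000122904.2 had 1319, 2399 and 1393 CPM in tp63 mutant replicates 2, 1 and 3, against 1239, 2497 and 2543 CPM in WT. ENSDART00000109016.1 and ENSDART00000155871.2 differed from it by less than 5% in every sample. ENSDART00000111585.2 had 731, 1411 and 782 CPM in tp63 mutant replicates 2, 1 and 3, against 445, 804 and 744 CPM in WT, so that mutant values were mostly above WT. ENSDART00000169417.1 had 488, 922 and 536 CPM in tp63 mutant replicates 2, 1 and 3, against 606, 1178 and 1107 CPM in WT. In all 5, replicate 3 was nearer to replicate 2 in tp63 mutants and nearer to replicate 1 in WT, but the first 3 named are not separate observations. The next in abundance, ENSDART00000171787.1 with a mean of 804 CPM, lacked the pattern. Its position of replicate 3 was 0.46 in tp63 mutants and 0.23 in WT, nearer to replicate 1 in both.

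Of the 20 members with a mean of at least 100 CPM, 16 had replicate 3 nearer to replicate 2 in tp63 mutants and nearer to replicate 1 in WT, and 0 had the opposite. Counting members with near-identical counts once, this was the case for 12 of 15. The pattern was found in 80% of the 20 members, against 16.5% of all 1466 transcripts of that abundance, of which 467 had the opposite. Of the 21 members between 10 and 100 CPM, 10 had the pattern (47.6%, against 14.2% of all transcripts of that abundance) and 7 had the opposite. Over all transcripts of that abundance, 4548 of 11359 had the opposite. The median position of replicate 3 in the 20 members was -0.28 in tp63 mutants and 0.36 in WT, and all 20 were above 0 in WT. The 16 were counted on the CPM scale only. They include ENSDART00000149978.2, ENSDART00000026180.8 and ENSDART00000149568.1, at only -0.037, -0.022 and -0.008 in tp63 mutants. TMM scaling moved the median mutant position of all 100 members from 0.05 to 0.14, so values this near 0 change sign with it. Of the 59 members below 10 CPM, 14 had the pattern (23.7%, against 19.0% of all transcripts of that abundance) and 25 had the opposite. Their median positions were 0.12 in tp63 mutants and -0.02 in WT. Over all transcripts below 10 CPM, 4568 of 13855 had the opposite, so it is not particular to the members. The classes of abundance were drawn after seeing the values, and no test was made of them.

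**Figure D5:**
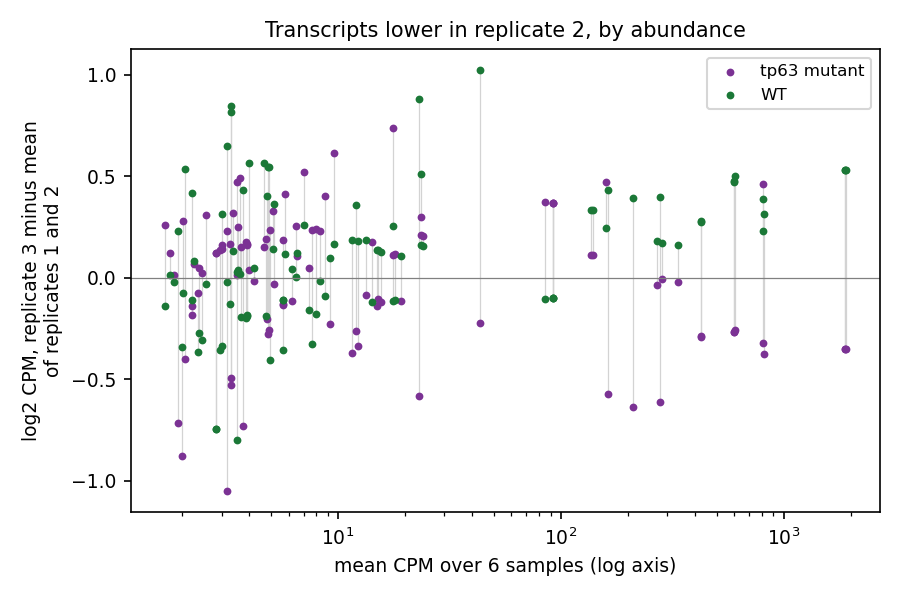
Position of replicate 3 in tp63 mutants (purple) and WT (green) for the 100 transcripts lower in replicate 2, against the mean CPM over the 6 samples on a log axis. A grey line joins both values of a transcript. For 16 of the 20 transcripts of at least 100 CPM the purple point is below 0, and for all 20 the green point is above 0.

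Over all 100 members lower in replicate 2, replicate 3 lay between replicates 1 and 2 for 83 in tp63 mutants and 87 in WT. It was above both for 9 and 8 members, and below both for 8 and 5. The median position was 0.05 in tp63 mutants and 0.13 in WT, or 0.13 and 0.15 above that of all transcripts. In the edgeR fit over both genotypes, the median log2 fold change of replicate 3 against the mean of replicates 1 and 2 was 0.13 with 79 of 100 members positive, against 0.02 with 53.6% positive over all transcripts. With library totals in place of TMM, 67 members and 39.1% of all transcripts were positive. When 1 sample was left out, the median of the members ran from 0.006 to 0.16. The lowest value was that without WT replicate 2, where 52 of 100 members and 52.3% of all transcripts were positive. The highest was that without WT replicate 1. Leaving out either sample changes the mean of replicates 1 and 2 through values that chose the members, so nothing is read from this range. No member passed the adjusted threshold, as in 0% of all transcripts, and 6 members were higher and 0 lower at an unadjusted p under 0.05, against 0.851% and 0.703%. The members with the most extreme position were ENSDART00000002945.3, at -0.88 in tp63 mutants and -0.34 in WT, and ENSDART00000152771.1, at 0.74 and 0.25. ENSDART00000152771.1 had 10.3, 18.4 and 22.9 CPM in tp63 mutant replicates 2, 1 and 3, against 9.11, 26.2 and 18.4 CPM in WT, so that the mutant replicate 3 exceeded both others.

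Between genotypes, 0 of the 100 members lower in replicate 2 were called higher in tp63 mutants and 0 lower by edgeR, against 0.272% and 1.22% of all transcripts. At an unadjusted p under 0.05, 2 members were higher and 10 lower, against 4.5% and 5.93%. The median log2 fold change was -0.23 with 25 of 100 positive. With library totals in place of TMM it was -0.03 with 48 positive, and it was 0.03 without tp63 mutant replicate 2, 0.20 without WT replicate 1, -0.53 without tp63 mutant replicate 1 and -0.53 without WT replicate 2. Leaving out 1 of these samples unbalances the replicate gap that chose the members between genotypes, so nothing is read from those shifts. The size of the median also depended on the scaling. With the replicate number as a term in the fit, 2 members were called higher and 13 lower, where 2.09% and 2.94% of all transcripts were called. The gap between replicates 2 and 1 that chose the members is part of the error of the fit without that term. The term removes that gap. The calls of both fits are thus shaped by the selection, and nothing is read from their number. The gap between replicates 2 and 1 within each genotype also makes overlap of mutant and WT values more likely. Nothing is therefore read from the shares without overlap. Mutant and WT values did not overlap for 2 members with the mutant higher and 2 with the mutant lower, against 12.3% and 4.64% of all transcripts.

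These 4 members form 2 pairs with near-identical counts, and they were singled out after their values were seen. ENSDART00000121686.2, paired with ENSDART00000155050.1, had 229, 398 and 250 CPM in tp63 mutant replicates 2, 1 and 3, against 515, 1135 and 1063 CPM in WT. Every mutant sample was below every WT sample, with means of 293 ± 91.8 CPM in tp63 mutants and 904 ± 339 CPM in WT (SD, n = 3 each). The edgeR log2 fold change of -1.83, with a standard error of 0.42, had an adjusted p of 0.0823. It passed the threshold in DESeq2 (adjusted p = 0.000232), in edgeR without a filter on low counts (adjusted p = 0.044) and without WT replicate 2 (adjusted p = 0.0102). Leaving out WT replicate 2 removes a sample that the selection requires to be below replicate 1, so nothing is read from that last value. ENSDART00000172377.1, paired with ENSDART00000060765.5, had 3.31, 6.31 and 6.33 CPM in tp63 mutant replicates 2, 1 and 3, against 1.29, 2.15 and 1.70 CPM in WT. Its mutant samples were all above its WT samples, and its log2 fold change of 1.46, with a standard error of 0.38, had an adjusted p of 0.136 from edgeR and 0.00876 from DESeq2. ENSDART00000039267.6 had 13.5, 21.9 and 14.7 CPM in tp63 mutant replicates 2, 1 and 3, against 19.7, 99.8 and 90.1 CPM in WT. Its WT replicate 2 fell within the mutant range, and its edgeR log2 fold change of -2.30, with a standard error of 0.57, had an adjusted p of 0.112. Without WT replicate 2 it was -2.78 with an adjusted p of 0.0011. That fit also leaves out the WT sample that the selection requires to be below replicate 1, so nothing is read from this value.

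Several identifiers had the same or nearly the same counts, so that members are not all separate observations. The 100 members higher in replicate 2 had 94 distinct sets of counts, and 25 members fell into 10 groups, the largest with 5 members. Within such a group, each member differed from at least 1 other by less than 5% in every sample. The 100 members lower in replicate 2 had 99 distinct sets of counts, and 34 of them fell into 15 such groups of up to 3. By this limit the 2 directions hold 85 and 81 profiles. Some profiles just beyond the limit are still much alike, so these numbers are upper bounds on separate observations. Counted once per profile, the median position of replicate 3 in members higher in replicate 2 was -0.27 in tp63 mutants and 0.25 in WT. The choice of the CPM limit mattered more. With a limit of 5 CPM, 7 of the 100 members higher in replicate 2 and 46 of the 100 lower in replicate 2 would have been chosen again, since 93 members of the first group were below 5 CPM in WT replicate 1. The transcripts chosen with that limit also had replicate 3 positions of -0.24 in tp63 mutants and 0.36 in WT. With TMM-scaled CPM, 86 of 100 members were shared in each direction.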

How the data were processed

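RNA-seq counts of 3 tp63 mutant and 3 WT samples at 36 hpf were used, grouped and numbered from the sample titles. Per the labels and the methods, alignment to GRCz10 (danRer10) used STAR. The authors then ran htseq-count, and what they deposited is 1 raw count for each Ensembl transcript and sample, not normalized. Options and annotation version are not given in the sources used here. The category lines of htseq-count were left out of totals and tests. Set against the counted total, they held 7.43% to 8.72% (no feature), 24.4% to 24.8% (ambiguous) and 13.3% to 14.8% (not unique) per sample.

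CPM used the summed counts of each library. Tests were made in R 4.3.3 with edgeR 4.0.16 (filterByExpr, TMM, quasi-likelihood test, Benjamini-Hochberg adjusted p under 0.05 over all transcripts tested), and the standard error is the absolute log2 fold change divided by the square root of F. All 200 members passed the filter. Both fits were also run on simulated counts with known changes and a common dispersion. The simulated counts held no difference between replicates 2 and 1, so they do not cover that feature of these libraries. The alternatives were DESeq2 1.42.0, RLE factors, library totals, 2 filters on low counts, identical counts counted once, a replicate block and each sample left out. Counting near-identical members once was chosen after seeing the data. Replicates are called biological by the study, and each p-value sets a difference against the spread between these samples. In the fit of replicate 3, that spread is what remains after replicate number and genotype.

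The members, lists and tests were chosen with earlier results of these data known. Named were, in each direction, the 5 most extreme members, the 5 with the highest mean CPM (1 for each set of identical counts), ranks 100 and 101, the 2 with replicate 3 farthest from 0, and up to 5 members past each test, of which there were none. Precision is given as counting error or spread between samples.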

Additional observations from a re-analysis of the deposited data

Results flagged for a closer look

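For the 100 transcripts higher in replicate 2, replicate 3 lay on opposite sides of the mean of replicates 1 and 2 in the genotypes. Its median position against that mean was -0.28 in tp63 mutants and 0.25 in WT on the log2 CPM scale, and -0.19 and 0.29 after TMM scaling. Over all transcripts the medians were -0.08 and -0.02 on the log2 CPM scale, and 0.007 and 0.02 after TMM scaling. Each genotype has 1 replicate 3 sample, so the difference between genotypes was not tested.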

How the results depend on the processing

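Over all transcripts, 114 were called higher and 513 lower in tp63 mutants, against 399 and 991 with DESeq2. Requiring 10 counts per sample gave 59 and 296, and scaling by library totals gave 322 lower. Leaving out 1 sample gave 19 to 179 higher and 205 to 560 lower. Of the members lower in replicate 2, DESeq2 called 2 higher and 2 lower, edgeR without a filter 2 lower, and the fits without 1 sample 0 to 4 lower. The 4 came without WT replicate 2, which the selection requires to be below WT replicate 1 in these members. The median log2 fold change of mutant against WT ran from -0.14 to 0.99 for members higher in replicate 2 and from -0.53 to 0.20 for those lower when 1 sample was left out. For replicate 3 against the mean of replicates 1 and 2, DESeq2 called 1 transcript lower, and leaving out 1 sample gave 0 to 88 higher and 0 to 30 lower, both extremes without tp63 mutant replicate 2. Each fit without 1 sample leaves 1 replicate number with 1 sample, so nothing is read from these numbers of calls. The median of the members higher in replicate 2 ran from -0.19 without WT replicate 3 to 0.27 without tp63 mutant replicate 3. Each of these extremes rests on the replicate 3 sample of the genotype that keeps it. Causes of the other differences were not tested.

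A fit with a replicate block called 879 transcripts higher and 1235 lower in tp63 mutants (2.09% and 2.94%). Of the members higher in replicate 2, 20 were then called higher and 0 lower, and of those lower in replicate 2, 2 were called higher and 13 lower. The block removes the replicate difference by which the members were chosen, so these counts of members are shaped by the selection. Deviations from the genotype means correlated at 0.605 for replicate 1, 0.424 for replicate 2 and -0.168 for replicate 3 across 26680 transcripts, and 4 of 6 samples correlated best with their own number. What same-numbered samples share is not stated, and the main fit has no block.

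The smallest count of any member limits a single log2 CPM to an error of 0.16 from counting. This is below the differences between replicates 2 and 1 that chose the members. It is above the median replicate 3 positions of the group lower in replicate 2, but is not the error of a median over members.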
